A study of Mus musculus with 9 samples.

Results

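The lysyl oxidases are 5 secreted enzymes, Lox and the lysyl oxidase-like proteins Loxl1, Loxl2, Loxl3 and Loxl4, and their messenger RNAs were followed here through 9 libraries of sorted mouse lung smooth muscle cells. The members are the rows with these gene symbols, a rule that uses no measured value although earlier results of these data were known, and all 5 are among the 21049 genes of the deposited table. The study sequenced RNA of bronchial smooth muscle cells (BSMC), pulmonary arterial smooth muscle cells (PASMC) and a total pulmonary smooth muscle population that includes venous cells (total_SMC), with 3 libraries per population. The BSMC libraries came from NVSMC-effector mice of genotype Chrm2/Acta2-CreER/R26-GFP. The PASMC libraries came from ASMC-effector mice of genotype Cspg4/Acta2-CreER/R26-GFP, and the total_SMC libraries from tg-Acta2-GFP mice. All 9 libraries are labelled with the same intraperitoneal tamoxifen in corn oil, 0.75 mg for each 10 g of body weight over 3 days, so no group is an untreated control. Cells were sorted by flow cytometry, and every genotype carries a GFP reporter and Acta2, the smooth muscle actin gene, as the driver of CreER or of GFP itself. Age, and whether the 3 libraries of a group came from separate animals, are not given in the sources used here, so the p-values measure the spread between these libraries, which may be technical. Mouse line, reporter and cell population change together between the groups and cannot be told apart.

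Lysyl oxidases are copper-dependent amine oxidases of the extracellular matrix. They oxidise the side chain of lysine in collagens and elastin to an aldehyde, and the aldehydes then react to form the crosslinks that give arteries and airways their tensile strength and recoil. Lox and Loxl1 are made with a propeptide that proteinases of the Bmp1 family remove, and both act on elastin and fibrillar collagen. Loxl2, Loxl3 and Loxl4 instead carry scavenger receptor cysteine-rich domains before the catalytic domain. Loxl2 is known for crosslinking the type IV collagen of basement membranes.

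All members share the catalytic domain. The stretch of it that binds copper is printed for 4 of them, to show how alike their coding sequences are there and how far they differ. The 33 bases run 5′ to 3′ on the coding strand and were read from GENCODE M21 transcripts (GRCm38). Capitals mark the positions at which the 4 sequences are not all the same, and lower case marks those they share.
Loxl1: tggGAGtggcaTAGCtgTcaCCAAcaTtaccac
Loxl2: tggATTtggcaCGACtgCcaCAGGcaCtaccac
Loxl3: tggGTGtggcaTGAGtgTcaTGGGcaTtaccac
Loxl4: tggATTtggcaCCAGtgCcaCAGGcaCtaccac
Of the 33 positions, 13 differed, and 7 of these were the last base of a codon. The codons for the histidines that hold the copper lie at shared places in all 4. The Loxl2 and Loxl4 sequences had 31 bases in common, and the other pairs among the 4 shown had between 21 and 25. Each stretch is coding and is split by an intron. In Loxl1 it joins exons 3 and 4 of 7 (chr9:58293720-58294381, minus strand) and in Loxl2 exons 10 and 11 of 14 (chr14:69682316-69689037, plus strand). In Loxl3 it joins exons 10 and 11 of 14 (chr6:83049995-83050125, plus strand) and in Loxl4 exons 11 and 12 of 15 (chr19:42598807-42599899, minus strand). Over whole transcripts, the longest run of identical bases between any 2 of the 5 members was 11 to 32 bases. The read length is not given in the sources used here.

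Loxl4 differed most between the groups, and it is the member for which the RefSeq promoter table (GRCm38.p6) has an entry. Lox, Loxl1, Loxl2 and Loxl3 had none. The 250 bases before the Loxl4 start, chr19:42612807-42613056 on the minus strand, are shown with GC boxes (GGGCGG) and a SMAD half-site (CAGAC) in capitals.
Loxl4 promoter: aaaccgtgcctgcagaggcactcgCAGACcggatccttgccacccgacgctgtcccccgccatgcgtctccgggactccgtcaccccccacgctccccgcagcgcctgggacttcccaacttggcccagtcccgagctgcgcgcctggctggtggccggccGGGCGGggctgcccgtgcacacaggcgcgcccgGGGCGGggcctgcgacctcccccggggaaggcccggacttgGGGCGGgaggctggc
The window was 76.0% G or C, against a median of 52.4% over 32851 promoter windows of the same length, and it held 27 CpG pairs against a median of 6. The 3 GC boxes began 89, 56 and 15 bases before the start and the SMAD half-site 226 bases before it. On either strand, 32.7% of all windows held GGGCGG and 42.2% held CAGAC. The TATA box TATAAA (12.4% of windows), the E-box CANNTG (66.2%), the hypoxia core ACGTG (16.6%, it can overlap an E-box), the TEAD motif GGAATG (12.6%) and the AP-1 motif TGANTCA (6.7%) were not in these letters. A match is a description of the letters and not evidence of binding.

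The libraries and their labels were examined first. The deposited values are counts scaled between libraries and rounded, and the read totals they imply, in megareads, were 6.39 to 9.33 for BSMC, 8.92 to 10.0 for PASMC and 8.93 to 9.90 for total_SMC. Smooth muscle myosin heavy chain Myh11 was abundant in every library, at 9171 to 12498. Chrm2, named in the BSMC genotype, ran against the labels, at 115 to 223 in BSMC and 199 to 398 in PASMC. Cspg4, named in the PASMC genotype, had the higher mean in PASMC, at 1296 to 1778 in BSMC and 1658 to 2393 in PASMC. For both genes the ranges of BSMC and PASMC overlapped. In total_SMC, Chrm2 was 240 to 351, and Cspg4, at 331 to 750, lay below all other libraries. Hhip and Lgr6, both known from airway smooth muscle, were higher in the libraries labelled PASMC (7414 to 7798 and 4116 to 4848) than in those labelled BSMC (2913 to 3491 and 2088 to 2601). BSMC, PASMC and total_SMC below therefore mean the libraries so labelled, and every direction rests on those labels. The tests used limma on log2(value + 1) over 15647 genes with a Benjamini-Hochberg adjustment. A change was called at an adjusted p under 0.05. Statements below that groups did not overlap stand beside the shares of all genes tested. Values did not overlap for 35.2% of genes between PASMC and BSMC, 40.5% between total_SMC and PASMC, and 50.5% between total_SMC and BSMC.

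Loxl1 was the most abundant member per kilobase of exon in all 9 libraries, and Loxl4 showed the widest range between groups. Loxl4 was higher in PASMC and in total_SMC than in BSMC. Lox, Loxl2 and Loxl3 were higher in total_SMC than in BSMC, and Loxl2 was also higher in PASMC than in BSMC. In the main fit, of all 9 libraries without weights, no call was made for Loxl1. That fit also called no member between total_SMC and PASMC. Some of the alternative fits and scalings given below did make such calls.

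**Figure D1:**
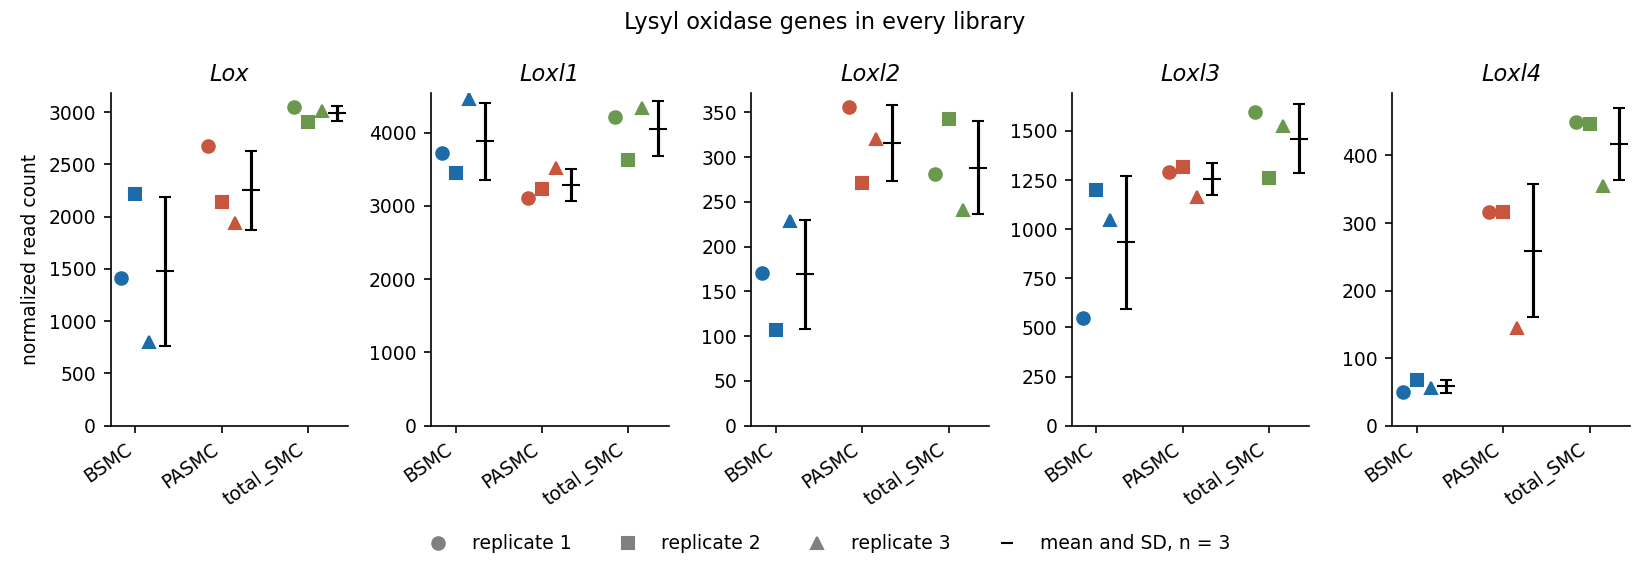
Normalized counts of the 5 lysyl oxidase genes in the 9 libraries, 1 point per library, with the group mean and SD (n = 3). The 3 Loxl4 points of BSMC, 50 to 68, lie below all those of PASMC (145 to 316) and total_SMC (355 to 450), while the Loxl1 points of the groups overlap between BSMC and each of the others.

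Lox (ENSMUSG00000024529, mm39 chr18:52649139-52662939, minus strand), the founding enzyme of the family and the one that arteries need for intact elastic layers, had normalized counts of 1413, 2218 and 801 in BSMC replicates 1 to 3, 2673, 2141 and 1940 in PASMC, and 3049, 2905 and 3014 in total_SMC. The BSMC libraries were spread over a wide range and overlapped the PASMC libraries, and the 3 total_SMC libraries lay close together above both. The means were 1477 ± 711 in BSMC, 2251 ± 379 in PASMC and 2989 ± 75.1 in total_SMC (SD, n = 3 each). Lox was 2.20-fold higher in total_SMC than in BSMC (log2 difference 1.14, SE 0.28, limma adjusted p = 0.00756). Between total_SMC and PASMC the difference was 0.42 (SE 0.28, limma adjusted p = 0.385) and was not called. It passed in a fit of those 2 groups alone (limma adjusted p = 0.016) and with library weights (0.0448). The difference of PASMC from BSMC, 0.71 (SE 0.28, limma adjusted p = 0.0827), missed the threshold. It rested on single BSMC libraries: without BSMC 2 it was 1.07 (limma adjusted p = 0.00294; with library weights 0.78, 0.019), without BSMC 3 it was 0.33, and the difference of total_SMC from BSMC without BSMC 3 was 0.76 (limma adjusted p = 0.00875). Within BSMC, Lox followed the implied read totals (replicate 2 above 1 above 3) and Loxl1 ran the other way, and the part of depth in this was not tested.

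Loxl1 (ENSMUSG00000032334, mm39 chr9:58195021-58220469, minus strand), which is known to keep elastic fibres in repair in adult tissue, had normalized counts of 3726, 3449 and 4463 in BSMC, 3104, 3231 and 3520 in PASMC, and 4207, 3627 and 4330 in total_SMC. The PASMC values were the lower ones, overlapping BSMC and lying just under total_SMC. The means were 3879 ± 524, 3285 ± 213 and 4055 ± 375 (SD, n = 3 each), and the limma differences were -0.23 (SE 0.12, adjusted p = 0.167) for PASMC from BSMC, 0.30 (SE 0.12, adjusted p = 0.118) for total_SMC from PASMC and 0.07 (SE 0.12, adjusted p = 0.665) for total_SMC from BSMC. None of these passed in the main fit. The first did pass without BSMC 2 (-0.31, limma adjusted p = 0.0487), with quantile scaling (-0.34, 0.0413) and with loess scaling (-0.38, 0.0393), and on implied reads without scaling it was -0.0015. The second passed in a fit of those 2 groups alone (0.30, limma adjusted p = 0.034) and with library weights (0.36, 0.00439). Loxl1 stood at 1.148 implied reads per exonic base on average, more than 99.2% of genes, and was among the 235 genes (1.53%) with at least 1. Replicates of those dense genes spread less, with a median variance of 6.72 times the mean, against 24.1 times at 0.2 to 0.4 reads per base, but the variance of Loxl1 itself was 20.2 times its mean. Whether counts at this density are limited, which would narrow group differences of Loxl1, was not tested.

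Loxl2 (ENSMUSG00000034205, mm39 chr14:69846517-69933283, plus strand) had normalized counts of 171, 107 and 229 in BSMC, 356, 271 and 320 in PASMC, and 281, 343 and 241 in total_SMC. All BSMC libraries lay below all others, and PASMC and total_SMC overlapped. The means were 169 ± 61.0, 316 ± 42.7 and 288 ± 51.4 (SD, n = 3 each). Loxl2 was 1.94-fold higher in PASMC than in BSMC (log2 difference 0.96, SE 0.27, limma adjusted p = 0.0264) and 1.77-fold higher in total_SMC than in BSMC (0.82, SE 0.27, limma adjusted p = 0.0288). Between total_SMC and PASMC the difference was -0.14 (SE 0.27, limma adjusted p = 0.82). Both calls were close to the threshold: the call between PASMC and BSMC was lost without BSMC 1 (limma adjusted p = 0.0554), PASMC 1 (0.102) or PASMC 3 (0.0611), and the call between total_SMC and BSMC without BSMC 1 (0.0517), BSMC 2 (0.53, 0.0618), total_SMC 1 (0.0675) or total_SMC 2 (0.11). The first call was also lost in a fit of 2 groups (0.0647) and without trended and robust variances (0.0559), and the second in these fits (0.0554 and 0.052), with quantile (0.0762) or loess scaling (0.0556) and with library weights (0.0534).

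Loxl3 (ENSMUSG00000000693, mm39 chr6:83011154-83029543, plus strand), a member needed for the skeleton and palate during development, had normalized counts of 550, 1200 and 1048 in BSMC, 1290, 1317 and 1165 in PASMC, and 1595, 1261 and 1524 in total_SMC. BSMC 1 stood below all other libraries, BSMC 3 below all PASMC libraries and BSMC 2 within the PASMC range, and all total_SMC libraries lay above all BSMC libraries. The means were 933 ± 340.0, 1257 ± 81.1 and 1460.0 ± 176.0 (SD, n = 3 each). Loxl3 was 1.64-fold higher in total_SMC than in BSMC (log2 difference 0.72, SE 0.24, limma adjusted p = 0.0322). This call was lost without BSMC 1 (0.37, limma adjusted p = 0.0686), total_SMC 1 (0.0984) or total_SMC 3 (0.0941), and with quantile scaling (0.0526), in the fit of 2 groups (0.0611) or without trended and robust variances (0.077). The difference of PASMC from BSMC was 0.51 (SE 0.24, limma adjusted p = 0.139), but it was called without BSMC 2 (0.72, 0.0251) and with library weights (0.0256). That of total_SMC from PASMC was 0.21 (SE 0.24, limma adjusted p = 0.658). Loxl3 overlaps Htra2 on the opposite strand, and Lox overlaps the long noncoding RNA Gm41724. Whether the authors counted by strand is not given in the sources used here, so reads of the overlapping pairs cannot be told apart. Htra2 itself was at 412 to 750 across libraries with no call, and Gm41724 at 0 to 31.

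Loxl4 (ENSMUSG00000025185, mm39 chr19:42582421-42601252, minus strand), which like Loxl2 and Loxl3 has scavenger receptor domains, had normalized counts of 50, 68 and 56 in BSMC, 316, 316 and 145 in PASMC, and 450, 446 and 355 in total_SMC. The 3 groups did not overlap, and PASMC 3 sat well below the other PASMC libraries. The means were 58.0 ± 9.2 in BSMC, 259 ± 98.7 in PASMC and 417 ± 53.7 in total_SMC (SD, n = 3 each). Loxl4 was 4.18-fold higher in PASMC than in BSMC (log2 difference 2.06, SE 0.30, limma adjusted p = 0.000553) and 7.10-fold higher in total_SMC than in BSMC (2.83, SE 0.30, limma adjusted p = 3.17e-05). Both calls held under each of the 20 alternatives of scaling, filter, fit and left-out library, with limma adjusted p of 9.24e-05 to 0.00546 and 6.31e-06 to 0.00045. The step from PASMC to total_SMC, 0.76 (SE 0.30, limma adjusted p = 0.109), missed the threshold. It was 0.39 without PASMC 3 and 0.95 without PASMC 1 or PASMC 2, and it passed in the fit of 2 groups alone (limma adjusted p = 0.0495).

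**Figure D2:**
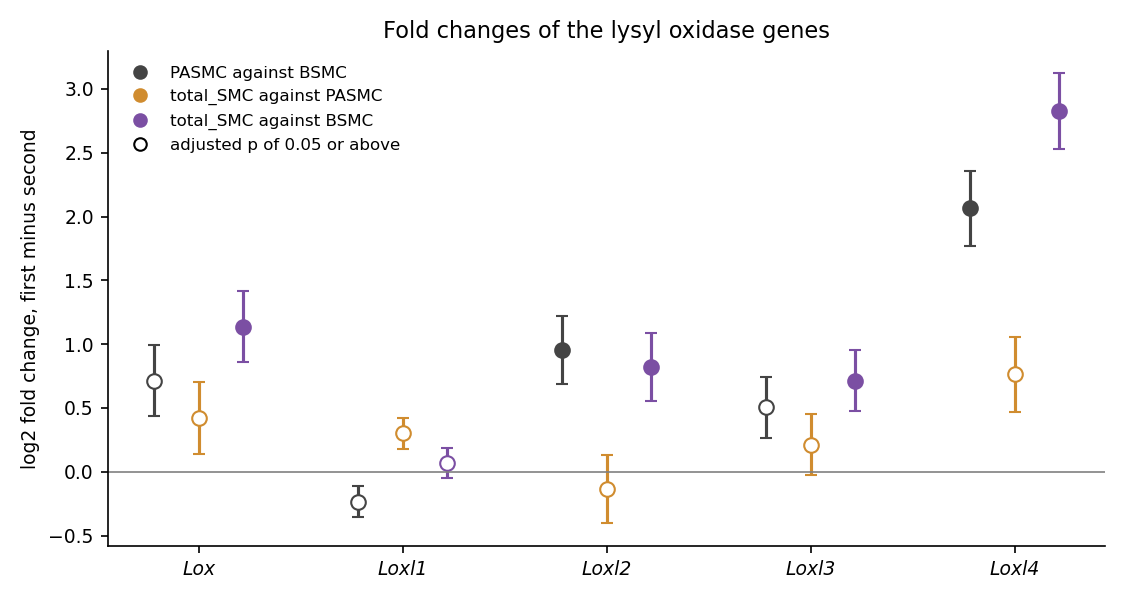
Log2 differences of the 5 genes in the 3 comparisons, each with its standard error from the limma fit. Loxl4 lies farthest from 0, at 2.06 for PASMC against BSMC and 2.83 for total_SMC against BSMC, and Loxl1 lies within 0.30 of 0 in all comparisons.

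Counted over the family, 2 of 5 members (Loxl2 and Loxl4) were called higher in PASMC than in BSMC and none lower, where limma called 22.1% of all genes, 13.2% higher and 8.88% lower. With quantile or loess scaling 3 were called, the added one being Loxl1, which was lower. The median log2 difference of the 5 was 0.71, against 0.05 over all genes. In total_SMC against BSMC, 4 of 5 were called higher and none lower, where 41.9% of all genes were called, 23.7% higher and 18.2% lower, and the medians were 0.82 and 0.05. In total_SMC against PASMC, 0 of 5 were called by limma, where 16.2% of all genes were called, 9.39% higher and 6.83% lower, and the medians were 0.30 and 0.03. In that last comparison 2 members, Loxl1 and Loxl4, had an unadjusted limma p under 0.05, as had 27.9% of all genes. A limma fit on those 2 groups alone called 3 members there, Lox, Loxl1 and Loxl4, and one with library weights called 2, Lox and Loxl1. The counts also rested on single libraries: without BSMC 2, 5 members were called between PASMC and BSMC, and without BSMC 1, only 1. The comparisons share libraries, so their counts are not independent of each other.

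To compare levels between genes, normalized counts were divided by exon length. In BSMC the means were 1177 ± 159 per kilobase for Loxl1, 309 ± 149 for Lox, 203 ± 73.9 for Loxl3, 31.3 ± 11.3 for Loxl2 and 13.8 ± 2.2 for Loxl4 (SD, n = 3). In total_SMC they were 1230 ± 114, 626 ± 15.7, 317 ± 38.2, 53.3 ± 9.5 and 99.0 ± 12.8 in the same order of genes. Loxl1 came before Lox and Lox before Loxl3 in 8 of 9 libraries, the exception being BSMC 3, where Loxl3 was above Lox. The lowest places changed hands: Loxl4 was below Loxl2 in every BSMC library and in PASMC 3, and above it in the remaining PASMC libraries and in every total_SMC library. In PASMC, Loxl4 (61.5 ± 23.4 per kilobase) and Loxl2 (58.4 ± 7.9) did not differ beyond their spread.

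The family's summed level per kilobase was 1589, 1807 and 1805 in BSMC, 1922, 1839 and 1820 in PASMC, and 2420, 2151 and 2404 in total_SMC. BSMC lay just under PASMC, and total_SMC above both. The Loxl1 share of that sum was 71.1%, 57.9% and 75.01% in BSMC, 49.0%, 53.3% and 58.7% in PASMC, and 52.7%, 51.1% and 54.6% in total_SMC. Loxl1 was the largest share in every library, highest in BSMC 1 and BSMC 3 and lowest in PASMC 1. The Loxl4 share was 0.74% to 0.89% in BSMC, 1.89% to 4.08% in PASMC and 3.51% to 4.92% in total_SMC. The ratio of Loxl1 to Loxl4 per kilobase was 64.8 to 102 in BSMC, 12.6 to 31.0 in PASMC and 10.4 to 15.6 in total_SMC, with BSMC above all other libraries. The ratio of Loxl1 to Lox was 3.82, 2.25 and 8.08 in BSMC, 1.68, 2.19 and 2.63 in PASMC, and 2.00, 1.81 and 2.08 in total_SMC, so BSMC 2 lay within the PASMC range.

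**Figure D3:**
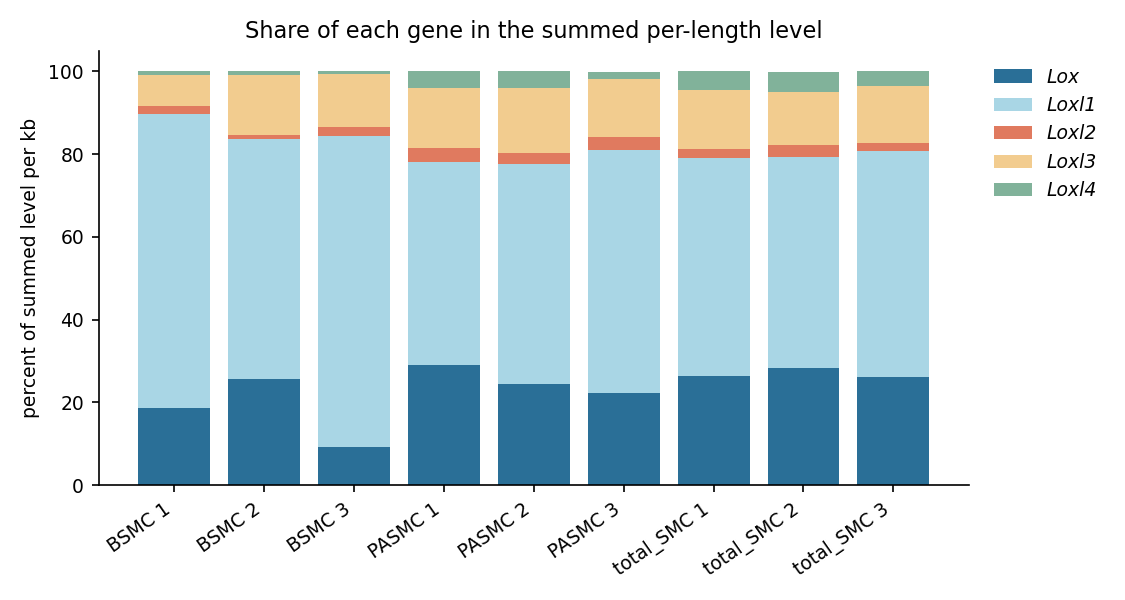
Share of each member in the family's summed normalized count per kilobase of exon, 1 stacked bar per library (percent). Loxl1 takes 49.0% to 75.01%, and the Loxl4 band is under 1% in the BSMC libraries and 1.89% to 4.92% in the others.

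The genes around the enzymes were followed in 10 lists holding 84 tested genes. Of these, 30 were called higher and 4 lower in PASMC than in BSMC, 17 higher and 8 lower in total_SMC than in PASMC, and 41 higher and 9 lower in total_SMC than in BSMC. The medians of the 84 log2 differences were 0.37, 0.11 and 0.53, against 0.05, 0.03 and 0.05 over all genes. The shares of all genes called higher and lower, beside which these and the counts of each list below stand, were 13.2% and 8.88%, 9.39% and 6.83%, and 23.7% and 18.2%. Like Loxl1, 9 of the 84 genes had at least 1 implied read per exonic base.

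Copper supply came first, since the enzymes take up copper in the secretory pathway. Atp7a, the pump that carries copper into the Golgi and on which lysyl oxidase activity depends, had normalized counts of 145, 286 and 109 in BSMC, 522, 421 and 449 in PASMC, and 801, 924 and 921 in total_SMC. The 3 groups did not overlap, and the log2 differences were 1.48 for PASMC from BSMC (limma adjusted p = 0.00376), 0.93 for total_SMC from PASMC (0.0455) and 2.40 for total_SMC from BSMC (7.38e-05). The copper chaperone Atox1 was lower in PASMC (-0.56) and in total_SMC (-0.51) than in BSMC. The copper importer Slc31a1 was higher in total_SMC than in PASMC (0.63) and BSMC (1.124). Ceruloplasmin, Cp, which carries copper in plasma, was 642 ± 204 in BSMC, 1652 ± 289 in PASMC and 3330 ± 372 in total_SMC (SD, n = 3), and its differences of 1.39, 1.02 and 2.41 were all called. Atp7b, the liver-type copper pump, was at 1, 0 and 0 in BSMC, 30, 23 and 19 in PASMC and 17, 8 and 9 in total_SMC. Of the 8 copper genes, 3 were called higher and 1 lower in PASMC than in BSMC, 4 higher in total_SMC than in PASMC, and 4 higher and 1 lower in total_SMC than in BSMC.

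Among the proteins that process lysyl oxidases or hold them at their substrate, 5 of 11 were called higher in PASMC than in BSMC. In total_SMC against BSMC 7 were called higher and 1 lower, and in total_SMC against PASMC 3 higher and 1 lower. Bmp1, the proteinase that releases the Lox propeptide, had normalized counts of 1390, 1433 and 1525 in BSMC, 2127, 2028 and 1962 in PASMC, and 2403, 2506 and 2488 in total_SMC. The groups did not overlap, and Bmp1 differed by 0.49 between PASMC and BSMC (limma adjusted p = 0.00497) and by 0.77 between total_SMC and BSMC (0.000135). Between total_SMC and PASMC its difference was 0.27 with limma adjusted p = 0.088. Fibronectin, Fn1, which binds Lox and Bmp1, was 2109 ± 289 in BSMC, 5300.0 ± 740.4 in PASMC and 6576 ± 419 in total_SMC (SD, n = 3), a called rise from BSMC of 1.33 and 1.65. Fibromodulin, Fmod, a collagen-binding proteoglycan that binds Lox, was 413 ± 85.6, 671 ± 103 and 2192 ± 297, and its differences of 0.71, 1.71 and 2.42 were called in all comparisons. The procollagen proteinase Adamts2 was 3148 ± 284, 5213 ± 95.5 and 7733 ± 498, with called differences of 0.73, 0.57 and 1.30. Thrombospondin-1, Thbs1, was called at 0.96 and 0.82 for PASMC and total_SMC from BSMC, the related proteinase Adamts3 at 2.49 for total_SMC from BSMC, and the Bmp1 enhancer Pcolce at 0.48 and 0.49 for total_SMC from PASMC and from BSMC. Periostin, Postn, which assists the activation of Lox, was the only lower call in this list, at -0.40 against PASMC and -0.33 against BSMC in total_SMC.

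Of the enzymes' substrates, the elastic fibre list had 7 of 16 genes called higher in PASMC than in BSMC, 5 higher in total_SMC than in PASMC and 8 higher in total_SMC than in BSMC, with none called lower. The first 2 are 43.8% and 31.2% of the list, beside 22.1% and 16.2% of all genes called in either direction. The 8 of 16 in the last is near the 41.9% of all genes called in either direction. All calls of this list were higher ones, beside 13.2%, 9.39% and 23.7% of all genes called higher in the 3 comparisons. Elastin itself was not among them: Eln was 8177 ± 1436 in BSMC, 7009 ± 399 in PASMC and 6759 ± 447 in total_SMC (SD, n = 3), with log2 differences of -0.21, -0.05 and -0.26 and no call. Fibrillin-1, Fbn1, the main protein of the microfibrils on which elastin is laid down, was 1718 ± 81, 3728 ± 588 and 8780 ± 832, and its differences of 1.11, 1.24 and 2.35 were all called. Fibulin-2, Fbln2, had differences of 1.26, 0.88 and 2.14, all called. Efemp1, another fibulin, was called at 0.91, 1.58 and 2.49, and the elastic fibre glycoprotein Emilin2 at 2.16 and 2.74 in total_SMC against PASMC and BSMC. Fbln5 and Efemp2, fibulins that bring Loxl1 and Lox to elastin, had no call in any comparison.

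The fibrillar collagens are the other main substrate. Col1a1, Col1a2 and Col3a1, the chains of types I and III collagen, had no call, and Col1a1 was 8402 ± 963 in BSMC, 8452 ± 475 in PASMC and 9135 ± 676 in total_SMC (SD, n = 3), Col1a1 being one of the genes with at least 1 implied read per base. Type V collagen, which regulates fibril width, differed: Col5a3 had normalized counts of 37, 64 and 106 in BSMC, 574, 631 and 900 in PASMC, and 452, 1111 and 741 in total_SMC. All BSMC libraries lay far below the others, which overlapped, and the called differences from BSMC were 3.42 and 3.49. Col5a2 was 1905 ± 278 in BSMC, 3505 ± 313 in PASMC and 4807 ± 35.7 in total_SMC, with called differences of 0.89 for PASMC from BSMC, 0.46 for total_SMC from PASMC and 1.34 for total_SMC from BSMC. Col5a1 was called higher in PASMC (1.122) and in total_SMC (0.996) than in BSMC. Col27a1, a collagen of cartilage, was called lower in total_SMC, at -1.11 against PASMC and -0.73 against BSMC. Col2a1, the cartilage collagen, was near the floor of the table at 0, 0 and 1 in BSMC, 15, 25 and 23 in PASMC and 6, 8 and 3 in total_SMC, so its fold depends on the pseudocount and is not given. In the whole list of 9 tested chains, 4 were called higher in PASMC than in BSMC, 1 higher and 1 lower in total_SMC than in PASMC, and 4 higher and 1 lower in total_SMC than in BSMC. Of the 6 type IV collagen chains, the substrate of Loxl2, 5 were called higher in PASMC than in BSMC and 6 in total_SMC than in BSMC. In total_SMC against PASMC, 2 were called higher and 1 lower. Col4a6 had means of 1072 in BSMC, 3092 in PASMC and 1630 in total_SMC (n = 3), and its differences of 1.52, -0.91 and 0.61 were called in all comparisons, with total_SMC below PASMC. Col4a4 ran in 1 order, at 22.7 ± 9.5, 61.3 ± 11 and 173 ± 37.0, with called differences of 1.47, 1.47 and 2.94. Col4a5 was called higher in PASMC (1.44) and in total_SMC (1.14) than in BSMC, and Col4a3 higher in total_SMC than in PASMC (1.74) and BSMC (2.06).

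**Figure D4:**
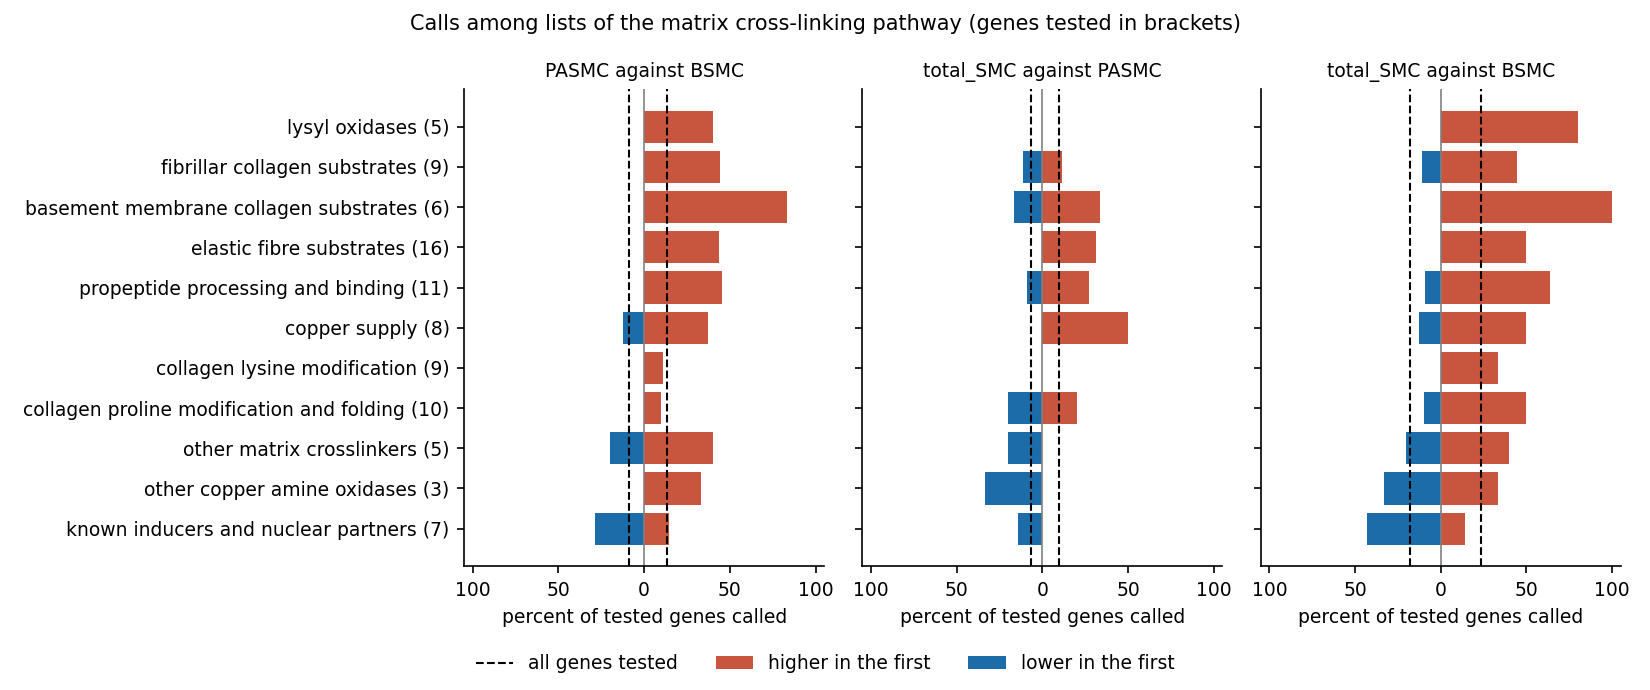
Percent of tested genes called higher (right) or lower (left) among the lysyl oxidases and in each list around them, in the 3 comparisons. Dashed lines mark the percent of all genes tested that were called higher and lower. Of the 6 basement membrane collagens, 5 were called higher in PASMC than in BSMC and 6 in total_SMC than in BSMC. Of 16 elastic fibre genes, 7 and 8 were called higher in these comparisons. The dashed lines for higher calls stand at 13.2% and 23.7% there.

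Lysine hydroxylation of collagen decides what kind of crosslink follows. Of 9 such genes, 1 was called higher in PASMC than in BSMC, the collagen galactosyltransferase Colgalt2 (1.69), and 3 in total_SMC than in BSMC, the hydroxylases Plod1 (0.75) and Plod3 (0.57) and their partner P3h3 (0.49). Between total_SMC and PASMC limma called 0 of the 9 (2, Plod1 and Plod3, at an unadjusted p under 0.05), the more abundant being Fkbp10 (0.08) and P3h3 (0.22). Of 10 genes for proline hydroxylation and collagen folding, 1 was called higher in PASMC than in BSMC, 2 higher and 2 lower in total_SMC than in PASMC, and 5 higher and 1 lower in total_SMC than in BSMC. The prolyl hydroxylase subunit P4ha3 was called at 1.31 for PASMC from BSMC and -1.21 for total_SMC from PASMC, while P4ha1 was called at 1.11 and 0.80 for total_SMC from PASMC and from BSMC. P3h2, which modifies type IV collagen, was called lower in total_SMC, at -1.28 and -0.76, and the folding enzyme Fkbp14 higher, at 0.87 and 1.39. Mia3, which helps export procollagen, was called at 1.07 for total_SMC from BSMC. Among other matrix crosslinkers, peroxidasin, Pxdn, which forms sulfilimine bonds in type IV collagen, was 1081 ± 289 in BSMC, 2936 ± 444 in PASMC and 3224 ± 245 in total_SMC (SD, n = 3), called at 1.47 and 1.61 from BSMC. The transglutaminase F13a1, also a gene of macrophages, had called differences of -1.05 for PASMC from BSMC, -1.54 for total_SMC from PASMC and -2.59 for total_SMC from BSMC. The sulfhydryl oxidase Qsox1 was called higher in PASMC (0.69) and in total_SMC (0.58) than in BSMC. Transglutaminase Tgm2 had no call. The copper amine oxidase Aoc3 of the smooth muscle surface was 2468 ± 467, 2904 ± 129 and 1190 ± 156, and was called lower in total_SMC than in PASMC (-1.29) and BSMC (-1.04). Its relative Aoc1 was at 0, 7 and 0 in BSMC, 12, 6 and 29 in PASMC and 36, 78 and 32 in total_SMC.

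Known inducers of lysyl oxidases did not move in a common direction. Tgfb1 was 538 ± 55.3 in BSMC, 300.0 ± 58.7 in PASMC and 204 ± 18.7 in total_SMC (SD, n = 3), called at -0.85 and -1.39 from BSMC, while Tgfb3 was called at 0.40 and 0.64. Of the 7 genes of that list, 1 was called higher and 2 lower in PASMC than in BSMC, and 1 higher and 3 lower in total_SMC than in BSMC. Between total_SMC and PASMC 1 was called lower, Tgfb2 (-0.57), which was also lower than in BSMC (-0.64). The hypoxia factor Epas1 was called at -0.37 and -0.40 from BSMC. Hif1a, Snai1 and Snai2 had no call.

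Markers of other cells moved with the groups too. The summed normalized counts of 12 fibroblast markers, cells that also make lysyl oxidases, were 20457 to 23559 in BSMC, 29050 to 32369 in PASMC and 42287 to 48732 in total_SMC, none of the 12 being at 0. Of these 12, 8 were called higher in PASMC than in BSMC and 7 in total_SMC than in BSMC, none lower. In total_SMC against PASMC, 5 were called higher and 1 lower, Npnt. The Lox, Loxl3 and Loxl4 means ran in the same order of groups as the fibroblast sums, and the Loxl1 and Loxl2 means did not. Within PASMC, replicate 3 had the highest fibroblast sum and the lowest Loxl4. The 8 mesothelial markers summed to 1054 to 1802 in BSMC, 373 to 636 in PASMC and 7519 to 8997 in total_SMC. The 8 leukocyte markers summed to 9587 to 13629 in BSMC, 2660 to 2759 in PASMC and 3454 to 4181 in total_SMC. Lyz2, Cd74 and H2-Ab1 had the highest means of that list in PASMC (1734, 736 and 227) and in total_SMC (404, 1815 and 1334). The list's median log2 difference from BSMC was -7.61 in PASMC, with 7 called lower, and -4.05 in total_SMC, with 8 called lower. Ptprc, which defines leukocytes, was at 760, 569 and 391 in BSMC, 0 in all PASMC libraries and 0, 4 and 3 in total_SMC. The 8 chondrocyte markers summed to 344 to 394, 617 to 1305 and 672 to 768, Matn3 being at 0 in all BSMC libraries. Sox9 had the highest mean of that list in each group (157, 413 and 530). Matn1 was at 21, 45 and 52 in PASMC and 4, 5 and 0 in total_SMC. Of 6 tested, 3 were called higher in PASMC than in BSMC, 2 lower in total_SMC than in PASMC, and 2 higher and 1 lower in total_SMC than in BSMC. The 8 smooth muscle genes summed to 29866 to 34996, 28485 to 32003 and 23991 to 29073. In the same order of groups, 8 endothelial markers summed to 8481 to 8894, 7119 to 8678 and 12678 to 14772. The 8 pericyte markers summed to 9960 to 12668, 15421 to 17090 and 14517 to 15852, although 3 were called higher and 5 lower in total_SMC than in BSMC. The 10 epithelial markers summed to 4506 to 5422, 4536 to 5371 and 3796 to 4775. Single epithelial markers moved both ways, with 4 called higher and 2 lower in PASMC than in BSMC. In total_SMC, 3 were called higher and 4 lower than in BSMC, and 3 higher and 4 lower than in PASMC. The 5 erythroid genes summed to 292 to 674, 7 to 20 and 83 to 153. The part of these cells in the differences of the lysyl oxidases and the genes around them was not tested, and in such bulk RNA fewer cells of a type and less RNA per cell cannot be told apart.

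The members did not share one profile over the 9 libraries. On log2 values, Pearson's r was 0.82 between Lox and Loxl4, 0.75 between Loxl3 and Loxl4, 0.70 between Loxl2 and Loxl4, 0.61 between Lox and Loxl3, 0.39 between Loxl2 and Loxl3 and 0.29 between Lox and Loxl2, and -0.29 to 0.06 between Loxl1 and each of the others. The 9 libraries fall into 3 groups, and the parts of these values that lie between and within groups were not separated. No member was among the 5 genes most like any other member. The closest profile to Lox was that of Far1 (r = 0.991), to Loxl1 that of Xbp1 (0.983), to Loxl2 that of Taok2 (0.952), to Loxl3 that of Aars (0.993) and to Loxl4 that of Gng7 (0.990). The other 4 genes of each set had r of 0.989 to 0.990 for Lox (Papola, Gask1b, Poglut3 and Slc36a4), 0.949 to 0.968 for Loxl1 (Shisa5, Pih1d1, Commd9 and Phlda3) and 0.932 to 0.948 for Loxl2 (Iqcg, Pnma8b, Adgrl3 and Plxna1). They had r of 0.988 to 0.991 for Loxl3 (Lrrc41, Ctns, Fbxw8 and Dpp3) and 0.978 to 0.986 for Loxl4 (Sipa1l1, Acss3, Frs2 and Ift172).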

How the data were processed

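RNA from sorted mouse lung cells was purified on columns with DNase and at most 10 ng was amplified with SMART-Seq v4, per the labels' protocols. The submitters' processing notes name Trimmomatic 0.39, STAR 2.7.11a, Picard 3.1.1, featureCounts 2.0.4 and DESeq2 1.36.0, and the build mm39. The annotation release and strand setting are not given in the sources used here. The deposited score of each gene is a count that the authors normalized between libraries and rounded to a whole number. It is not a raw count, so no count model was run. The steps between values in each column gave the factor between normalized counts and reads, and hence the implied read totals. A gene was tested when 3 or more libraries reached 10, which left 15647. Values entered limma 3.58.1 (R 4.3.3) as log2(value + 1), with 3 group means fitted to all 9 libraries, trended and robust variances, and Benjamini-Hochberg adjustment over all genes kept. The test was checked on simulated data with the same spread setting for all genes and groups. Unequal spread between groups, as seen for Lox, was not part of that check. Precision is limited by 3 libraries per group. Exon lengths came from GENCODE M21 (GRCm38), matched by gene identifier for 96.7% of genes. Sequences came from the same release and, for the promoter, from RefSeq. Named genes were the 5 members and, from each list, up to 3 called genes per comparison and direction with the largest difference, or, where a list had no call, the 2 most abundant. Outside this rule, Bmp1, Eln, Fbln5, Efemp2, Col1a1, Col1a2, Col3a1, Tgm2, Hif1a, Snai1 and Snai2 were named for their role after their values were seen. The genes most alike were the 5 with the highest Pearson r over the 9 libraries, predicted genes and pseudogenes left out. The alternatives were other scalings, filters, pseudocounts and variance settings, a fit of 2 groups, library weights, a replicate block and leaving out each library. The members and lists were chosen with earlier results of these data known.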

Additional observations from a re-analysis of the deposited data

How the results depend on the processing

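Of 300 member values (15 differences under 20 alternatives each), 265 kept their direction and side of the threshold, 20 lost a call, 12 gained one and 3 reversed. The reversed ones were the difference of Loxl1 between total_SMC and BSMC, at -0.11 with quantile scaling, -0.066 with loess scaling and -0.0125 without BSMC 2 (up to 0.1734 without BSMC 3). Between PASMC and BSMC, 1926 genes were called when those groups were fitted alone and 1724 to 6698 when 1 library was left out, against 3451. Between total_SMC and PASMC, 4345 were called in the fit of 2 groups, 5082 with library weights and 1679 to 3219 with 1 library left out, against 2539. Between total_SMC and BSMC the count stayed within 1.5 times of 6553. Members called between PASMC and BSMC numbered 1 in the fit of 2 groups, 1 without trended and robust variances, 4 with library weights, 3 with quantile or loess scaling (Loxl1, lower, being the third) and 1 to 5 with 1 library left out. Between total_SMC and BSMC they numbered 2 with quantile scaling, 2 in the fit of 2 groups, 2 without trended and robust variances and 2 to 4 with 1 library left out. Between total_SMC and PASMC they numbered 3 in the fit of 2 groups and 2 with library weights. In that fit of 2 groups the Lox and Loxl1 differences stayed at 0.42 and 0.30. Their SE were 0.11 and 0.095 there, against 0.28 and 0.12 in the main fit, which also holds the BSMC libraries. The cause of these changes in the number of calls was not tested. Scaling moved the split of calls over all genes: quantile scaling gave 2017 higher and 2072 lower between PASMC and BSMC (2062 and 1389 in the main fit) and 3217 and 4049 between total_SMC and BSMC (3706 and 2847). Implied reads without scaling gave 1891 and 690, with a median over all genes of 0.27, and 3392 and 1554, with a median of 0.22. With a replicate block, 3287, 2286 and 6350 genes and 2, 0 and 4 members were called in the order of the comparisons above. Same-numbered libraries had correlations of -0.124 to 0.136, 1 of 9 over 0.1, and 3 of 18 matched best with their own number. With 3 libraries per group this cannot decide whether a number marks a shared animal, day or batch. The labels do not say what it marks.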
